A study of Arabidopsis thaliana with 12 samples.

Results

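LHB1B2, PSBY, PSBW and PSB27 are nuclear genes for parts of photosystem II of *Arabidopsis thaliana*, and their transcript levels in the *psae1* mutant were set against those in wild-type plants (WT). The members are the probes that the platform annotation assigns to exactly 1 gene, that gene being 1 of these 4. Each gene had 1 such probe, so there were 4 genes of the 691 that the 692 single-gene probes name, on an array of 3439 probes. The study holds 6 *psae1* samples and 6 WT samples, numbered 1 to 6 in each genotype, all of the ecotype Columbia 0, with total RNA as the measured molecule. Per the labels the mutant lacks PSI-E1, a protein of photosystem I, and WT is the unmutated ecotype. The plants' age, tissue, growth light and type of allele are not given in the sources used here, so no tissue was checked against its markers. No single-gene probe was named for PSAE1 itself, so its transcript gives no check of the genotype labels here.

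Photosystem II is the pigment-protein complex of the thylakoid membrane that uses light to take electrons from water, and photosystem I receives those electrons further down the chain. LHB1B2, also named LHCB1.5, encodes a chlorophyll a/b-binding protein of the main light-harvesting antenna of photosystem II. PSBY and PSBW encode small membrane-spanning subunits of the complex. PSB27 encodes a lumenal protein that in plants and cyanobacteria acts in the assembly and repair of the complex and is not a part of the mature one.

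The deposited values are linear intensities on a scale that the authors do not state, with a summed intensity per sample of 3436 to 3564 in *psae1* and 3611 to 3678 in WT. Probes at 0 numbered 153 to 168 per sample in *psae1* and 139 to 145 in WT. Only *psae1* samples held values of 100, 9 in all. What these say about the scale was not tested. The median probe was lower by 0.25 on the log2 scale in *psae1* before centring, a size close to the differences described here. Differences are therefore given after each sample was centred on its median, and also as deposited where that changes what is seen. Across all probes, sample 1 of a genotype deviated like sample 2, sample 3 like 4, and sample 5 like 6, so results were also computed on 3 averages per genotype. Where samples deviate together, p-values from 12 separate samples are too small, and counts of calls from them are too high. Nothing in the labels says that samples came from separate plants, and p-values measure the spread between samples, which may be technical.

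By brightness in WT, all 4 probes lay in the upper part of the array. Among 3290 probes measured in all 6 WT samples, PSBW ranked 14 from the brightest (percentile 99.6), LHB1B2 ranked 20 (99.4), PSB27 ranked 166 (94.98) and PSBY ranked 390 (88.2). These are ranks of probes, and since brightness also depends on the probe, they are no order of transcript abundance. The percentile moved little between WT samples for PSBW, LHB1B2 and PSB27 (SD 0.0590, 0.0415 and 0.498 percentile points) and more for PSBY (SD 2.98, n = 6).

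Relative to the median probe, the antenna gene LHB1B2 and the subunit gene PSBY rose in *psae1*, and the subunit gene PSBW and the assembly factor gene PSB27 did not pass the test. The call of LHB1B2 did not hold after quantile or cyclic loess normalization, and PSBW and PSB27 then turned negative, while PSBY kept its call in the 12 samples. In RNA of whole samples, a change in the share of cells that hold a transcript and a change in its amount per cell cannot be told apart. LHB1B2 was 1.42-fold higher in *psae1* (95% interval 1.28 to 1.58) and PSBY 1.402-fold higher (1.23 to 1.59), while PSBW was at 1.05-fold (0.920 to 1.195) and PSB27 at 1.06-fold (0.905 to 1.24). So 2 of 4 members were called higher and 0 lower by limma at an adjusted p under 0.05. Of all tested probes, 11.9% were called higher and 10.9% lower. By mean level over the 12 samples, all 4 members were in the brightest 10% of tested probes. In that 10%, 46.6% were called higher and 6.71% lower, so 2 of 4 is near the share of bright probes. With samples averaged in 3 per genotype 0 of 4 passed by limma, where 2.29% of all probes passed, although LHB1B2 and PSBY were under 0.05 before adjustment (limma unadjusted p = 0.0015 and 0.0034). When the set of numbers was added as a replicate block to these averages, LHB1B2 and PSBY passed (limma adjusted p = 0.029 and 0.043), and 4.13% of all probes were called higher. Both also passed as higher in other fits of the 12 samples, with 14.8% of all probes called higher with a replicate block, 4.12% with a random block for samples that deviate together, and 3.39% in the values as deposited, where 49.8% were called lower.

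LHB1B2, the antenna gene, had deposited intensities of 23.8, 21.4, 24.1, 23.7, 21.6 and 22.9 in *psae1* samples 1 to 6, against 18.6, 17.0, 18.4, 18.8, 20.9 and 21.3 in WT samples 1 to 6. The genotypes did not overlap even before centring, though the lowest *psae1* value (21.4) and the highest WT value (21.3) nearly met. Without overlap and higher in *psae1* were 1.17% of probes as deposited and 6.75% when centred. The mean was 22.9 ± 1.16 in *psae1* and 19.2 ± 1.64 in WT (SD, n = 6 each). The centred difference was 0.51 ± 0.07 on the log2 scale (SE, limma adjusted p = 0.00031), and 0.26 ± 0.07 as deposited (limma adjusted p = 0.0061). WT samples 5 and 6 were the highest of their genotype, and the centred difference was 0.35 in numbers 5 and 6, 0.56 in 1 and 2, and 0.61 in 3 and 4.

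The difference of LHB1B2 lay near the middle of those of the brightest probes. The 30 brightest tested probes had a median centred difference of 0.52, and LHB1B2 ranked 14 of 30 from the lowest. In the brightest 10% of probes, 46.6% passed as higher and 6.71% as lower, and their median difference was 0.23, against a median of 0.01 over all tested probes. Under scalings that bring the intensity distributions of the samples together or remove a trend with level, LHB1B2 lay at 0.07 (quantile) and 0.08 (cyclic loess) and did not pass (limma adjusted p = 0.50 and 0.39), where 7.41% and 8.48% of all probes were called higher. LHB1B2 is also 1 of several LHCB1 genes with closely similar coding sequences, among them its neighbour LHB1B1. Whether its probe also measures their transcripts was not tested.

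PSBY encodes a precursor that is cut into a pair of small membrane proteins at the edge of the photosystem II core. Its deposited intensities in *psae1* samples 1 to 6 were 1.45, 1.68, 1.59, 1.64, 1.71 and 1.46, against 1.35, 1.48, 1.501, 1.51, 1.13 and 1.14 in WT samples 1 to 6. Each *psae1* sample exceeded the WT sample of equal number, but the genotypes overlapped as deposited, and WT 5 and WT 6 were the lowest of the 12. The mean was 1.59 ± 0.109 in *psae1* and 1.35 ± 0.176 in WT (SD, n = 6 each). When centred, the genotypes no longer overlapped, as for 6.75% of probes, which were higher in *psae1* without overlap. The centred difference was 0.49 ± 0.09 (SE, limma adjusted p = 0.0014). It was 0.75 in numbers 5 and 6, against 0.36 in numbers 1 and 2 and 0.35 in 3 and 4. The call held without numbers 5 and 6, at 0.36 (limma adjusted p = 0.0059). Unlike LHB1B2, PSBY kept its call after quantile (0.36) and cyclic loess (0.37) normalization of the 12 samples (limma adjusted p = 0.018 and 0.014). As deposited it was at 0.24 (limma adjusted p = 0.035). Of all tested probes, 7.41% (quantile), 8.48% (cyclic loess) and 3.39% (as deposited) were called higher. With 3 averages per genotype PSBY did not pass under any of these scalings (limma adjusted p = 0.23, 0.22 and 0.19).

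**Figure D1:**
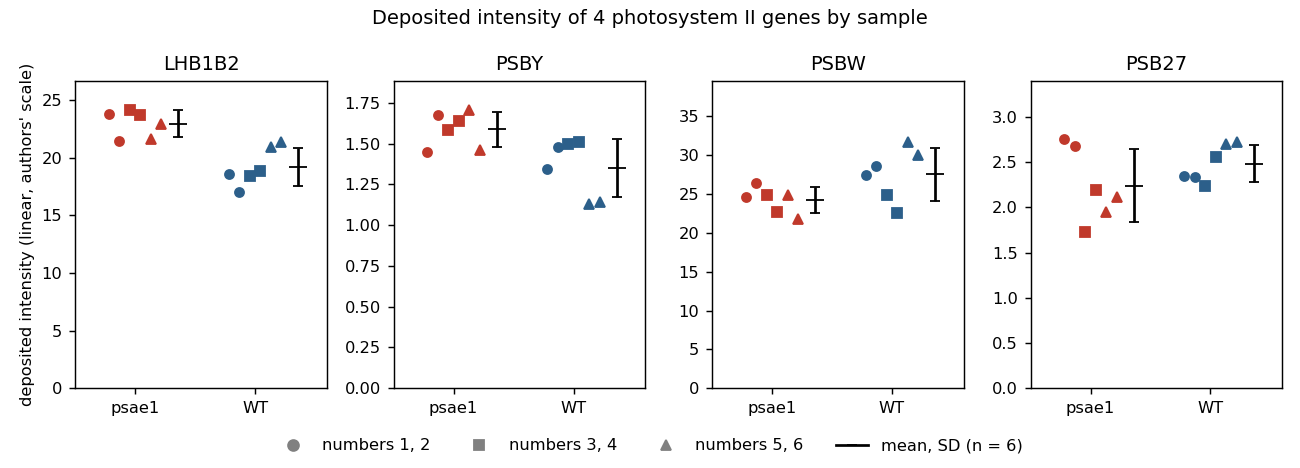
Deposited intensity (linear, on the authors' scale, each axis from 0) of LHB1B2, PSBY, PSBW and PSB27 in 6 *psae1* and 6 WT samples; marker shapes show numbers 1 and 2, 3 and 4, and 5 and 6, and bars give the mean and SD. LHB1B2 shows no overlap between genotypes, PSBY separates most in numbers 5 and 6, PSBW is spread widely in WT, and PSB27 is highest in *psae1* 1 and 2.

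PSBW, the brightest of the 4 probes, is a subunit known from plants to stabilise the supercomplex of photosystem II with its antenna. Its deposited intensities were 24.6, 26.4, 24.9, 22.7, 24.8 and 21.8 in *psae1* samples 1 to 6, against 27.5, 28.6, 24.8, 22.5, 31.6 and 30.1 in WT samples 1 to 6. The genotypes overlapped through WT samples 3 and 4, while WT 1, 2, 5 and 6 lay above all *psae1* samples. The mean was 24.2 ± 1.66 in *psae1* and 27.5 ± 3.37 in WT (SD, n = 6 each). The centred difference was 0.07 ± 0.09 on the log2 scale (SE, limma adjusted p = 0.61), with 95% limits of −0.12 and 0.26. Its sign depended on the scaling, since it was at −0.18 as deposited, −0.21 with quantile and −0.38 with cyclic loess normalization. The last of these passed as lower with 12 samples (limma adjusted p = 0.0034), as did 9.76% of all probes, and did not with 3 averages per genotype (limma adjusted p = 0.15). Among the 30 brightest probes, PSBW had the rank 7 from the lowest difference.

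PSB27, the assembly factor gene, varied most among the *psae1* samples. Its deposited intensities were 2.76, 2.68, 1.73, 2.196, 1.95 and 2.12 in *psae1* samples 1 to 6, against 2.35, 2.34, 2.23, 2.56, 2.70 and 2.72 in WT samples 1 to 6. *psae1* 1 and 2 lay above their WT counterparts and *psae1* 3, 4, 5 and 6 below all WT samples. The mean was 2.24 ± 0.407 in *psae1* and 2.48 ± 0.206 in WT (SD, n = 6 each), a coefficient of variation of 18.2% and 8.29%. The centred difference was 0.08 ± 0.11 (SE, limma adjusted p = 0.60), with 95% limits of −0.14 and 0.31, and it was 0.43 in numbers 1 and 2, −0.05 in 3 and 4 and −0.14 in 5 and 6. Without numbers 1 and 2 it was at −0.09, and it was at −0.17 as deposited, −0.13 after quantile and −0.12 after cyclic loess normalization. None of these values passed (limma adjusted p = 0.58, 0.22, 0.41 and 0.47, with unadjusted p = 0.41, 0.15, 0.23 and 0.29).

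**Figure D2:**
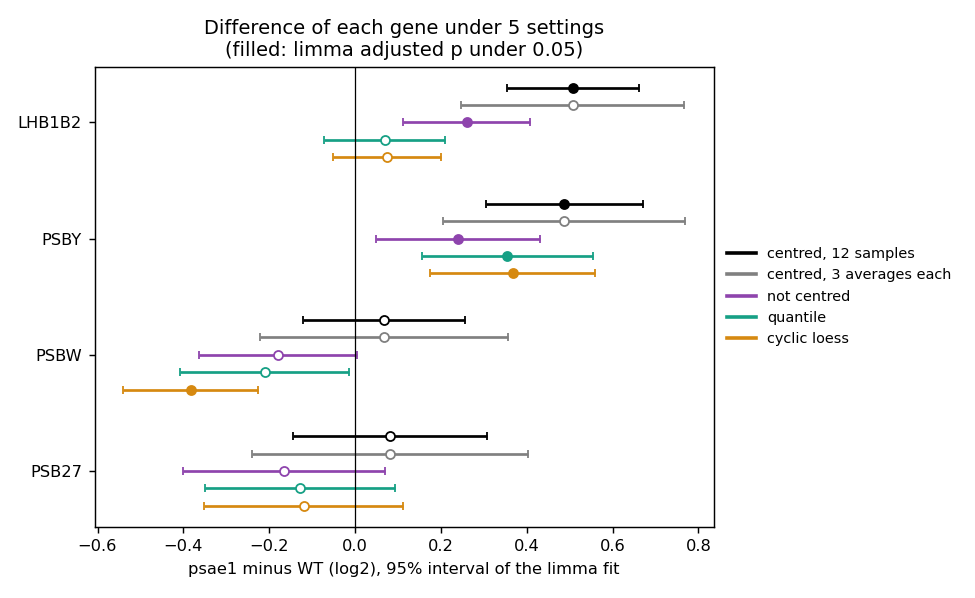
Difference of *psae1* minus WT (log2) with 95% intervals of the limma fit for each of the 4 genes, under 5 settings; filled points have an adjusted p under 0.05. PSBY lies above 0 under all 5, LHB1B2 comes close to 0 after quantile and cyclic loess normalization, and PSBW and PSB27 lie above 0 only in the centred settings.

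The members were next compared with each other through the log2 ratio of a pair of probes within a sample, which does not change when a whole sample is scaled up or down. There were 6 such pairs, tested over the samples with a two-sided exact permutation test and adjusted by Benjamini-Hochberg over the 6. Such a ratio shows unequal change and does not say which gene changed. With 3 averages per genotype the exact test cannot go below p = 0.10. With same-numbered samples paired as a replicate block, an exact sign-flip test cannot go below p = 0.031. LHB1B2 over PSBW, LHB1B2 over PSB27 and PSBY over PSBW each reached it and did not pass after adjustment (sign-flip adjusted p = 0.063). Both this test and the permutation of 12 samples treat the numbers as separate. Where numbers of a set deviate together, their p-values are too small.

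The antenna gene rose relative to PSBW. The log2 ratio of LHB1B2 over PSBW was −0.05, −0.30, −0.05, 0.06, −0.20 and 0.07 in *psae1* samples 1 to 6, against −0.57, −0.75, −0.43, −0.26, −0.60 and −0.50 in WT samples 1 to 6. The ratio was higher in *psae1* in 6 of 6 same-numbered comparisons, with WT 4 and *psae1* 2 overlapping. The difference was 0.44 ± 0.09 (SE, n = 6 each, exact permutation p = 0.0043, adjusted p = 0.013), a 1.36-fold higher ratio. It was of like size in each set of numbers, at 0.48 in 1 and 2, 0.35 in 3 and 4, and 0.48 in 5 and 6, and the 3 averages of *psae1* all lay above those of WT (exact permutation p = 0.10, the smallest possible). After cyclic loess normalization, which changes levels by brightness, it was at 0.46, and after quantile normalization it was at 0.28 and did not pass after adjustment (exact permutation, adjusted p = 0.075).

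LHB1B2 also rose relative to PSB27, by 0.43 ± 0.12 on the log2 scale (SE, n = 6 each, exact permutation p = 0.0043, adjusted p = 0.013), higher in 6 of 6 same-numbered comparisons. The log2 ratio lay between 2.998 and 3.80 in *psae1* and between 2.86 and 3.05 in WT. This difference was uneven, at 0.13 in numbers 1 and 2, 0.65 in 3 and 4, and 0.49 in 5 and 6, and both quantile and cyclic loess normalization brought it to 0.20 (exact permutation, adjusted p = 0.11 and 0.10). Averages of *psae1* again lay above those of WT without overlap (exact permutation p = 0.10).

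PSBY rose relative to PSBW by 0.42 ± 0.15 on the log2 scale (SE, n = 6 each, exact permutation p = 0.017, adjusted p = 0.035), higher in 6 of 6 same-numbered comparisons. Most of this came from numbers 5 and 6, where the difference was 0.88, against 0.29 in 1 and 2 and 0.09 in 3 and 4. Without numbers 5 and 6 it was at 0.19 (exact permutation, adjusted p = 0.30), and without *psae1* 2, 3, 4, 5 or 6 it did not pass (exact permutation, adjusted p up to 0.078). After quantile normalization it was at 0.57 and after cyclic loess normalization at 0.75, and both passed. PSBY over PSB27 was at 0.41 ± 0.17 (SE, n = 6 each), which was under 0.05 before adjustment and not after (exact permutation p = 0.048, adjusted p = 0.071). It ran from −0.07 in numbers 1 and 2 to 0.89 in numbers 5 and 6.

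The other pairs showed no difference beyond the spread between samples. LHB1B2 over PSBY was at 0.02 ± 0.14 (SE, n = 6 each, exact permutation p = 0.89), and PSBW over PSB27 at −0.01 ± 0.13 (exact permutation p = 0.92). The error leaves room for differences of either sign in both. The mean of LHB1B2 over PSBY hides opposite values, 0.20 and 0.26 in numbers 1 and 2 and 3 and 4, and −0.40 in numbers 5 and 6. After cyclic loess normalization it was at −0.29 and passed (exact permutation, adjusted p = 0.049), and PSBW over PSB27 passed as lower, at −0.26 (exact permutation, adjusted p = 0.049).

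**Figure D3:**
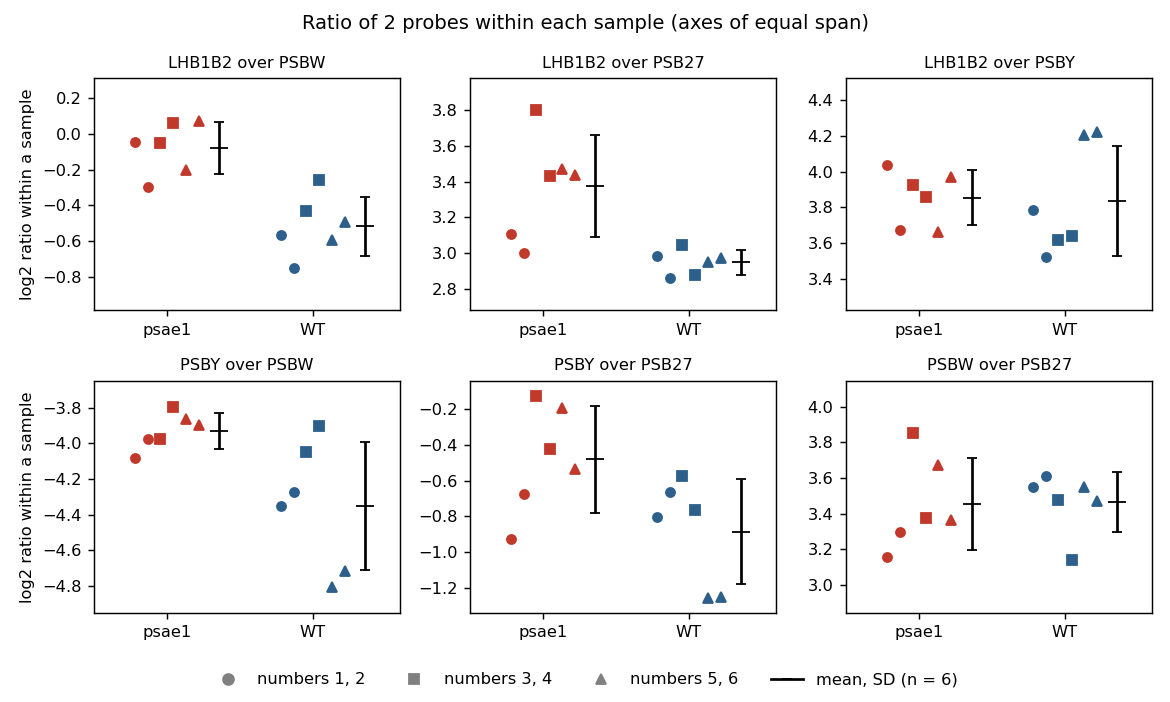
Log2 ratio of a pair of probes within each sample for the 6 pairs of members, in *psae1* and WT, on axes of equal span; marker shapes show numbers 1 and 2, 3 and 4, and 5 and 6, and bars give the mean and SD (n = 6). LHB1B2 over PSBW, LHB1B2 over PSB27 and PSBY over PSBW are shifted upward in *psae1* in every set of numbers, LHB1B2 over PSBW most evenly. WT 5 and 6 stand apart in the ratios with PSBY.

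Around the genotype means, LHB1B2 and PSBY deviated in opposite directions over the pooled samples, most of all in WT 5 and 6 and less in *psae1*. After the genotype means were removed, the centred log2 values of LHB1B2 and PSBY over the 12 samples had a Pearson correlation of −0.80, with WT 5 and 6 high for LHB1B2 and low for PSBY. PSBY had correlations of −0.54 with PSBW and −0.53 with PSB27, and LHB1B2 had 0.33 with PSBW. The 12 samples share the centring and deviate in sets of numbers, so these values are descriptions. In WT, numbers of 1 set lay close for PSBY, with a mean absolute difference of 0.05 on the log2 scale within a set and 0.25 between sets. In *psae1* these were 0.15 and 0.12, so there the sets of numbers did not order PSBY. This was not particular to PSBY. In *psae1*, LHB1B2 had 0.10 within a set and 0.08 between sets, and PSBW had 0.15 and 0.10. PSB27 had 0.16 and 0.32 there, and in WT the difference between sets was the larger for all members.

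The single-gene probes whose centred pattern over the 12 samples was most like each member's, out of 649 candidates measured in all samples, were mostly loci without a gene name in the table. AT3G23940 was closest to LHB1B2 (Pearson r = 0.97, and 0.78 with genotype means removed), followed by AT1G50390 and AT4G27390 (both 0.95). AT2G37510 and AT1G24040 were closest to PSBY (0.98 and 0.96, and 0.92 and 0.90 with means removed), followed by AT5G58330, which encodes the NADP-dependent malate dehydrogenase (0.93, and 0.66 with means removed). The closest to PSB27 was AT4G38020 (0.91), followed by AT5G05400 (0.84) and AT3G20490 (0.79). PSBW had no partner above 0.82, with AT2G43760 at 0.82, AT3G26730 at 0.81 and AT4G33500 at 0.80.

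A list of 88 genes for subunits, assembly and repair factors and antenna proteins of photosystem II, and for photosystem I with its antenna, held 7 genes with a tested single-gene probe. These are the 4 members, LPA19, AT1G54500 and the photosystem I gene PSAN. Of the 3 that are not members, 1 was called higher and 0 lower. Of all tested probes 11.9% were called higher and 10.9% lower, and of the brightest 10% of them 46.6% and 6.71%. The median centred difference of the 3 was 0.06, against 0.01 over all tested probes. PSAN is described here only by its place in the brightest 10% of tested probes and by its difference. This difference was 0.52 ± 0.07 (SE, n = 6 each, limma adjusted p = 0.00015), close to those of LHB1B2 and PSBY.

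LPA19 is a homologue of PSB27 that acts in the maturation of the reaction-centre protein D1. Its deposited intensities lay between 0.688 and 0.832 in *psae1* and between 0.900 and 1.09 in WT, so the genotypes did not overlap. As deposited, 26.6% of probes were lower in *psae1* without overlap. The centred difference was −0.13 ± 0.07 (SE, n = 6 each, limma adjusted p = 0.19), and −0.38 as deposited (limma adjusted p = 0.00078, and 0.051 with 3 averages per genotype). AT1G54500, on the assembly list, was at 0.06 ± 0.07 (SE, n = 6 each, limma adjusted p = 0.54). As deposited it was at −0.18, which passed as lower (limma adjusted p = 0.046) and did not with 3 averages per genotype (0.26). These calls as deposited were shared by 49.8% of all tested probes, which were called lower in the 12 samples.

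A further 4 tested probes list several genes with at least 1 on the list, and no gene is named from them. For 1 of these every gene, 3 in all, is an antenna protein of photosystem II. Its mean intensity was 1.57 ± 0.112 in *psae1* and 1.66 ± 0.0374 in WT (SD, n = 6 each). Its centred difference was 0.17 ± 0.06 (SE, limma adjusted p = 0.049), which did not pass with 3 averages per genotype (limma adjusted p = 0.43). It was at −0.08 as deposited, 0.02 with quantile and 0.03 with cyclic loess normalization. The other 3 probes did not pass when centred. But 1 of them passed as lower as deposited, at −0.51 (limma adjusted p = 0.0090). Another passed as higher after cyclic loess normalization, at 0.33 (limma adjusted p = 0.043). Of all tested probes, 11.9% were called higher when centred, 49.8% lower as deposited and 8.48% higher after cyclic loess normalization.

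**Figure D4:**
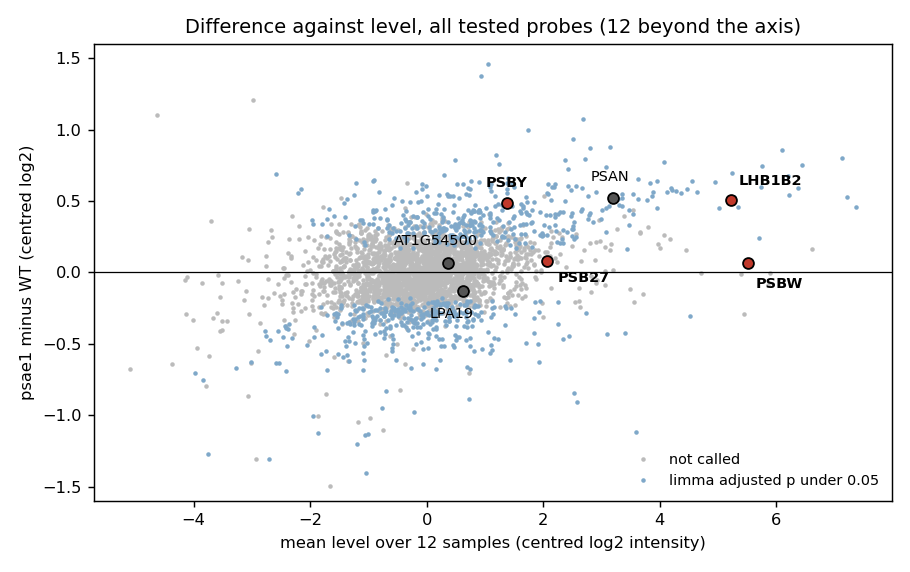
Difference of *psae1* minus WT (centred log2) against the mean level over 12 samples (centred log2 intensity) for all 3279 tested probes, 12 of them beyond the vertical axis; members are red, and LPA19, AT1G54500 and PSAN dark grey. Bright probes lie mostly above 0, LHB1B2 among them, while PSBW and PSB27 lie near 0.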

How the data were processed

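Expression of *Arabidopsis thaliana* was measured on arrays in 6 *psae1* and 6 WT samples. The authors deposited a linear intensity per probe, with no negative value; their background correction and scaling are not given in the sources used here. The number of arrays limits the precision. Intensities were taken to log2 with 0 as missing and centred on each sample's median. Probes with 3 or more values per genotype (3279) entered a two-sided test in R 4.3.3 with limma 3.58.1, whose p-values were adjusted over all of them by Benjamini-Hochberg and called under 0.05. Names come from the platform annotation, updated by a TAIR10.1 gene table that served for names and neighbours only; 690 of 692 single-gene probes matched a locus. Named are the members, tested list genes and the 3 probes most like each member. Members and lists were chosen with earlier results of these data known.

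On simulated data in which samples of a set deviated together, the fit to 12 samples found most built-in changes. It made more false calls than its threshold allows, while the fit to averages made few. The deviations were drawn separately for each genotype, so a deviation shared by equal numbers of both genotypes was not simulated. Equal numbers of the genotypes deviated together over 3257 probes (r of 0.23 to 0.42), and the labels state no pairing. Unequal numbers of the genotypes were not compared, so pairing by single number cannot be told from pairing by set of numbers. Sizes and p-values are from the fit without a replicate block. Within a genotype, 1 with 2, 3 with 4 and 5 with 6 had a mean r of 0.47 in *psae1* and 0.49 in WT. Alternatives were another scaling, filter, pseudocount or block, averages, array weights and omitted samples.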

Additional observations from a re-analysis of the deposited data

Results flagged for a closer look

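Each of 26 sets of 6 values of 1 genotype, for the members, the other list genes and the 6 ratios, was searched for a sample far from the rest, and 1 was found. About 1 such set in 20 arises by chance alone when the 6 values are independent, and samples that deviate together are not. The log2 ratio of PSBW over PSB27 was 3.14 in WT 4 while the remaining WT samples lay between 3.47 and 3.61, so that the gap made up 0.700 of the whole range. WT 4 had the lowest PSBW intensity of its genotype. Without WT 4, the difference of this ratio was at −0.08 (exact permutation, adjusted p = 0.64) and again did not pass.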

How the results depend on the processing

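Averages under another scaling, and omission of numbers 1 and 2, of 3 and 4 and, for ratios, of 5 and 6, were chosen after seeing the data. The 748 changed probes (391 higher, 357 lower) became 1745 without centring (111 higher, 1634 lower), 75 in averages, 229 in averages with the replicate block, 189 with a random block for the sets of numbers, 393 without numbers 1 and 2, and 57 and 47 in averages after quantile and cyclic loess normalization; quantile normalization of 12 samples split as 243 higher and 349 lower. The other fits stayed within 1.5 times in their total, among them the replicate block with 931 and averages as deposited with 676, which split as 17 higher and 659 lower. LHB1B2, at 0.51, and PSBY, at 0.49, lost their calls in averages (limma adjusted p = 0.056 and 0.075) and kept them with the replicate block, in averages with it (0.029 and 0.043) and with the random block (0.013 and 0.041). LHB1B2 also lost its call after quantile (0.069) and cyclic loess normalization (0.076), with 12 samples or averages, and in averages as deposited (0.26). PSBY lost its call in averages as deposited (0.24), after quantile (0.36) and after cyclic loess normalization (0.37). PSBW changed sign as deposited (−0.18), after quantile (−0.21) and cyclic loess normalization (−0.38), with 12 samples or averages, and without numbers 3 and 4 (−0.026). PSB27 did so as deposited (−0.17), after quantile (−0.13) and cyclic loess normalization (−0.12), likewise, and without numbers 1 and 2 (−0.093). AT1G54500 did so as deposited (−0.18, also in averages) and without numbers 3 and 4 (−0.014).

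For the ratios, LHB1B2 over PSBW no longer passed after quantile normalization (0.28), and without numbers 1 and 2 (0.42), 3 and 4 (0.48) or 5 and 6 (0.42). LHB1B2 over PSB27 did not after quantile (0.20) or cyclic loess normalization (0.20), or without these numbers (0.57, 0.31 and 0.39), nor did PSBY over PSBW without them (0.49, 0.58 and 0.19). With the replicate block, as an exact sign-flip test that cannot go below 0.031, these 3 ratios were at 0.44, 0.43 and 0.42 (adjusted p = 0.063 each). With fewer samples the adjusted p has little room to pass. PSBY over PSB27 (0.49) and PSBW over PSB27 (−0.26) passed after cyclic loess normalization. LHB1B2 over PSBY changed sign after quantile (−0.29) and cyclic loess normalization (−0.29) and without numbers 1 and 2 (−0.070) or 3 and 4 (−0.10), and PSBW over PSB27 without 1 and 2 (0.16). Apart from centring, which lowers or raises all probes of a sample alike, what moved these values was not tested.

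Leaving out 1 sample at a time gave 610 to 761 changed probes, 0.47 to 0.54 for LHB1B2, 0.44 to 0.52 for PSBY, 0.0079 to 0.11 for PSBW and 0.024 to 0.15 for PSB27, with no call changed among these 4. For the ratios it gave 0.39 to 0.49 for LHB1B2 over PSBW, 0.34 to 0.50 for LHB1B2 over PSB27, −0.042 to 0.098 for LHB1B2 over PSBY, 0.33 to 0.51 for PSBY over PSBW, 0.33 to 0.50 for PSBY over PSB27 and −0.094 to 0.045 for PSBW over PSB27. PSBY over PSB27 passed without *psae1* 1 (0.50). The sample that deviates with the omitted one stays in, so this says little about stability. The WT percentiles of brightness moved by less than their spread between samples.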
